A study of Danio rerio with 23 samples.

Results

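Among the genes counted in the zebrafish intestine, 81 stood higher in fish starved for 21 days than in fed fish of that day. After 3 days of refeeding they lay near the level of the fed fish of the same day. They were selected on the measured values themselves: CPM, the reads of a gene scaled to library totals of equal size, were computed, averaged within groups as log2(CPM + 5), and a gene was kept where its mean over the 23 libraries was 20 CPM or more, where 21dpS starved minus fed was at least 1, and where 3dpR refed minus fed lay between -0.5 and 0.5. Ribosomal protein, translation factor, proteasome, complex I and apolipoprotein genes were removed by the start of their symbols, which cost 1 gene. The 81 members come from 2877 genes at or above the CPM minimum and 34326 identifiers in all. Of the genes raised at 21dpS, 25 others were still above the refeeding limit at 3dpR and 22 lay below it.

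The intestines were taken whole from single adult siblings of 1 breeding pair. In 2 tanks the fish received no food from 60 dpf (days post-fertilization) on and were sampled after 3 days (3dpS starved, n = 4) and 21 days (21dpS starved, n = 4), and the same tanks were then given Artemia and Gemma 300 again and sampled 3 days later (3dpR refed, n = 4). Fish of 2 other tanks were fed throughout and sampled on the same days (3dpS fed, n = 3, and 21dpS fed and 3dpR fed, n = 4 each). Among 3dpS fed fish, replicate 1 came from tank 1 and the others from tank 2 of the fed tanks. The same split held for 21dpS starved fish and the starved tanks. Each tank held 44 fish, no allele or other agent was involved, and the labels print an age of 81 dpf for every library. Food was given or withheld by tank, so what the food did and what the tank did cannot be told apart, and the tests below measure the spread between fish only. A whole intestine mixes epithelium, muscle and blood, so a lower count may mean fewer cells of a type or less RNA per cell, which also cannot be told apart.

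A gut without food loses its luminal supply of amino acids, fat and vitamins. Starved vertebrate tissues can change their use of fuels and the expression of ribosome genes. Ribosome biogenesis takes place in the nucleolus, where small nucleolar ribonucleoproteins and many assembly factors process and modify the ribosomal RNA. Complement is a cascade of plasma proteins, made mostly by the liver and in part locally in epithelia, that opsonizes and lyses microbes. The members touch these subjects and several others, and the account follows their roles.

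What a count stands for has a limit that touches every named gene. The sources do not state which strand option was used in counting, and MT-ND6, the single mitochondrial protein gene encoded on the other strand, held 16493 reads per library on average, against 3915 for MT-CO1, the next of the 13. Gene positions could be looked up by symbol for 53 of the 81 members in the current RefSeq assembly, which is another build than the one used for the counts. This is fewer than 80%, so shares of overlapping genes were not compared with the rest of the genome. Of those 53, 32 overlap another gene and 44 overlap one or have one within 1 kb. Partners counted at a higher mean level than their member were c2cd3 (116 CPM) for rrp8, smad9 (238 CPM) for RFXAP, ryr3 (244 CPM) for AVEN, rhoq (128 CPM) for PIGF, si:ch73-352p4.8 (88.9 CPM) for FOXM1, and pfn4 and mak16, given below. On the log2(CPM + 5) scale, starved minus fed was -4.27 at 21dpS and -4.82 at 3dpS for c2cd3, opposite in sign to rrp8. At these times it was 0.25 and 0.36 for smad9, 0.43 and 0.13 for ryr3, and 0.10 and -0.36 for rhoq. For si:ch73-352p4.8 it was 0.54 and 0.51. In most pairs the partner was the lower: this held for 27 of the 34 pairs where both genes were counted. Of the 34 partner genes, 23 had a mean under 20 CPM. For pairs of either kind, from which gene the reads came cannot be told apart, and a few partner genes are named below. Symbols in capitals are those of the gene name table. The libraries held 500205 to 1236436 reads on genes, so that 3 reads, taken as the smallest detectable count, equal 2.43 to 6.00 CPM. Only the error of counting is considered in that limit. The top total belongs to 3dpS starved replicate 2, the next being 712850 reads. In that library the count of every member was even, while all others held odd and even counts. Whether its reads were counted more than once was not tested. The tests took its counts as deposited, and its limit of 2.43 CPM rests on them. Without it, 60 of 78 members tested were higher at 3dpS and 1 was called, where 0.485% of all genes were called higher. A member had a median of 65 reads in a 21dpS starved library and 22 in a 21dpS fed library, and 35 members averaged fewer than 20 reads in the 21dpS fed fish.

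**Figure D1:**
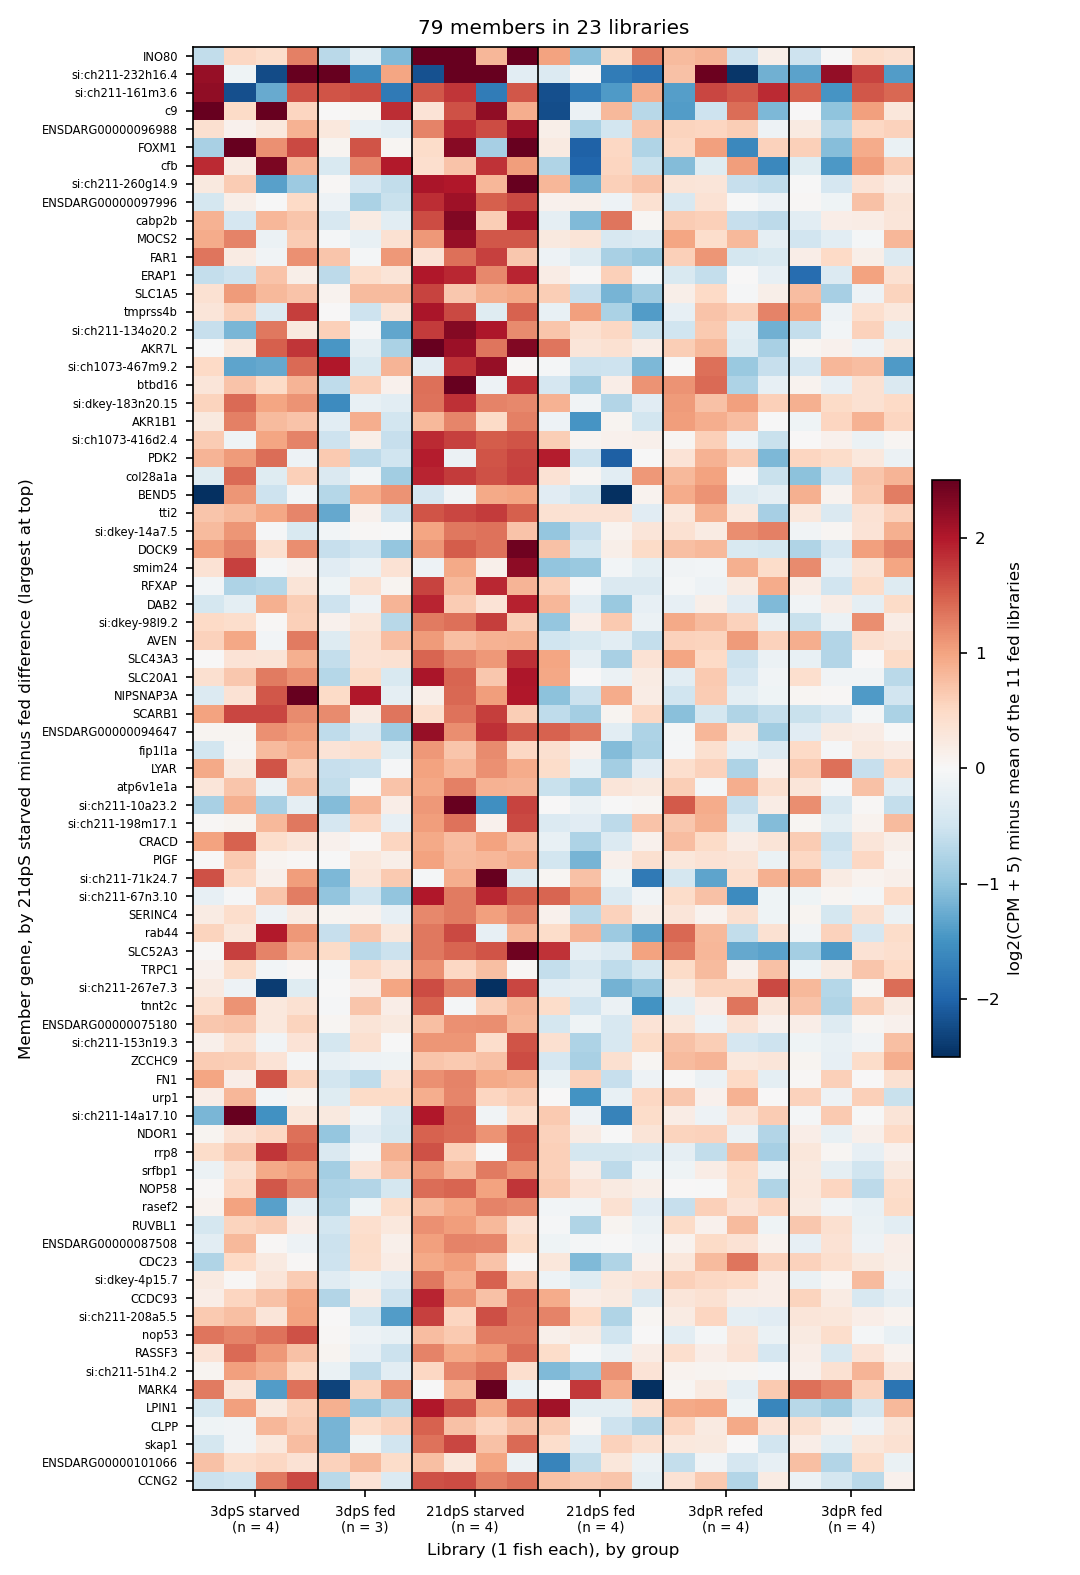
Level of 79 of the 81 members (rows, ordered by the 21dpS difference) in each of the 23 libraries (columns, by group), as log2(CPM + 5) minus the mean of the 11 fed libraries. Red fills most of the 21dpS starved columns, with exceptions among the first rows, and the 3dpS starved columns are red in part.

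The differences used in the choice ran between 1.00 and 2.25 with a median of 1.19, and 17 members had 1.5 or more. At 21dpS all 4 starved fish lay above all 4 fed fish for 41 members and the groups overlapped for 40. Over all genes tested at 21dpS, 6.56% had such non-overlapping groups and 1.16% were called higher by edgeR (adjusted p under 0.05). Among members 20 were called, of 79 that passed the filter on low counts. Because the same contrast picked the members, nothing is read from these counts. The lowest 21dpS starved fish exceeded the highest of all 11 fed fish for 28 members (3.62% of all genes tested), which the choice also favoured. Leaving out 1 of the 16 libraries of 21dpS and 3dpR at a time kept 20 members under every omission and dropped the other 61 in at least 1. Without 21dpS fed replicate 1 the rule gave 124 genes, 75 of them among the 81. That fish was the highest of its group for 40.7% of the members, against 34.4% of all genes at 20 CPM or more.

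Near the limits of the rule, CCNG2 (1.0011) and ENSDARG00000101066 (1.0036) were just inside the 21dpS limit, and cnbpb (0.9965) and sftpba (0.995) just outside. At the upper refeeding limit MOCS2 (0.4986) and AVEN (0.475) were inside, and TPGS2 (0.5249) and RFC5 (0.5351) outside. At the lower one c9 (-0.4886) and cfb (-0.477) were inside, and IGFBP1 (-0.5663) and COG2 (-0.6428) outside. At the CPM minimum si:ch211-208a5.5 (20.3 CPM) and tnnt2c (20.9 CPM) were inside, and ARG2 (19.7 CPM) and DRC1 (19.6 CPM) outside. These borders divide genes of nearly equal values.

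The 3dpS fish give the one comparison whose difference the choice did not use, although their values enter the mean CPM. Members near the CPM minimum could pass it partly through high 3dpS starved values. Such were rrp8 (mean 22.1 CPM, 38.7 CPM in 3dpS starved fish) and si:ch211-208a5.5 (20.3 and 23.4 CPM). The comparison asks whether genes raised after 21 days were already raised after 3. Of the 81 members, all tested, 67 had a higher level and 14 a lower level in 3dpS starved than in 3dpS fed fish. Their median log2 fold change was 0.45 (quartiles 0.10 and 1.00), against a median of 0.01 over all 3953 genes tested, of which 50.5% were higher. With a minimum of 40 CPM in the rule, 44 of 56 genes were higher, with a median of 0.47. A log2 fold change of 1 or more was seen in 21 members (25.9%) and in 6.35% of all genes tested. For 17 members (21.0%) every starved fish lay above every fed fish, where the share over all genes was 10.6%. For no member did every starved fish lie below, which held for 117 of the 3953 genes tested, against 420 with every starved fish above.

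At the level of single genes the 3dpS data carried few calls. By edgeR's quasi-likelihood test with Benjamini-Hochberg adjustment over the 3953 genes, 1 member was called higher and 0 lower, where the share called higher over all genes was 0.253%. At an unadjusted p under 0.05, 21 members were higher and 0 lower, against 7.89% and 7.06% of all genes. DESeq2 called 6 members higher and 0 lower, and 1.61% of the 3470 genes with an adjusted p were called higher. The single 3dpS fed fish of tank 1, replicate 1, had 26564 CPM of erythrocyte markers and 6259 CPM of exocrine pancreas markers. The other 3dpS fed fish, both of tank 2, had 2287 to 2702 CPM and 970 to 1896 CPM. Without replicate 1, which leaves 1 fed tank, 61 of 81 members were higher and 3 were called. Over all genes 52.6% were then higher and 1.49% were called higher. Markers of ovary and egg summed to 22.5, 173, 73.7 and 248 CPM in 3dpS starved fish and to 16.8, 20.5 and 18.4 CPM in 3dpS fed fish, without overlap. Of the 3 tested, 2 were higher and 0 called, with a median log2 fold change of 3.87. At 21dpS these sums were 20.9 to 230 CPM in starved and 46.6 to 584 CPM in fed fish. The part of blood, pancreas and ovary in the members' values was not tested.

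**Figure D2:**
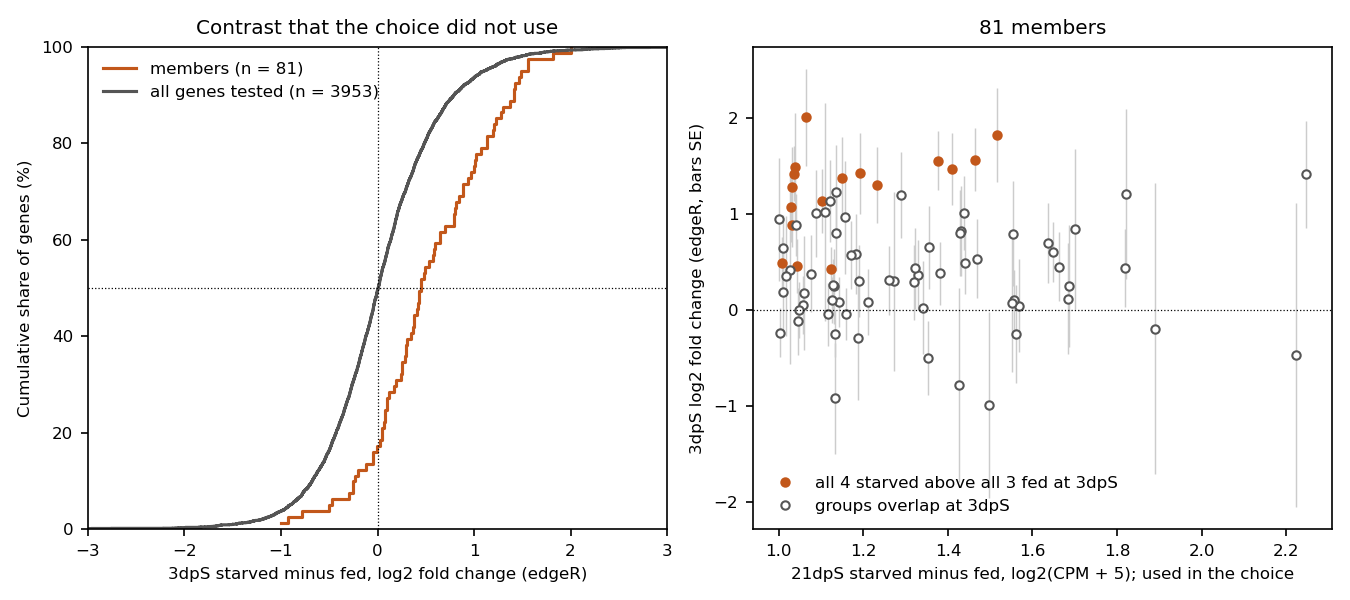
Left, cumulative share of genes (percent) by log2 fold change of 3dpS starved minus fed, for the 81 members (orange) and all 3953 genes tested (grey). Right, the same 3dpS log2 fold change with its SE against the 21dpS difference that the choice used; filled points are the 17 members whose 4 starved fish all lay above the 3 fed fish. The members' curve lies to the right of that of all genes, with medians of 0.45 and 0.01.

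The member called at 3dpS was DOCK9, an exchange factor that activates the small GTPase Cdc42. It had 566, 645, 359.7 and 611 CPM in 3dpS starved fish, against 181, 194 and 136 CPM in 3dpS fed fish. The log2 fold change was 1.55 ± 0.31 (SE), with an adjusted p of 0.0477 in edgeR. All starved fish were above all fed fish by a wide margin. The call was lost with RLE scaling (edgeR adjusted p = 0.0505) and in a fit of all 23 libraries (0.168), and on leaving out 3dpS fed replicate 2 (0.207) or 3 (0.262) or 3dpS starved replicate 1 (0.0861), 2 (0.0622) or 4 (0.141), while the log2 fold change was between 1.35 and 1.77 over all omissions of 1 library. At 21dpS DOCK9 stood at 589.8, 787, 703 and 1479 CPM in starved fish and at 451, 198, 299 and 382 CPM in fed fish. After refeeding it split by tank in both diets: the refed fish had 462 and 476 CPM in tank 1 and 208 and 199 CPM in tank 2, and the fed fish had 159.5 and 200.0 CPM in tank 1 and 555 and 648 CPM in tank 2. The group means at 3dpR thus average unlike tanks on each side.

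**Figure D3:**
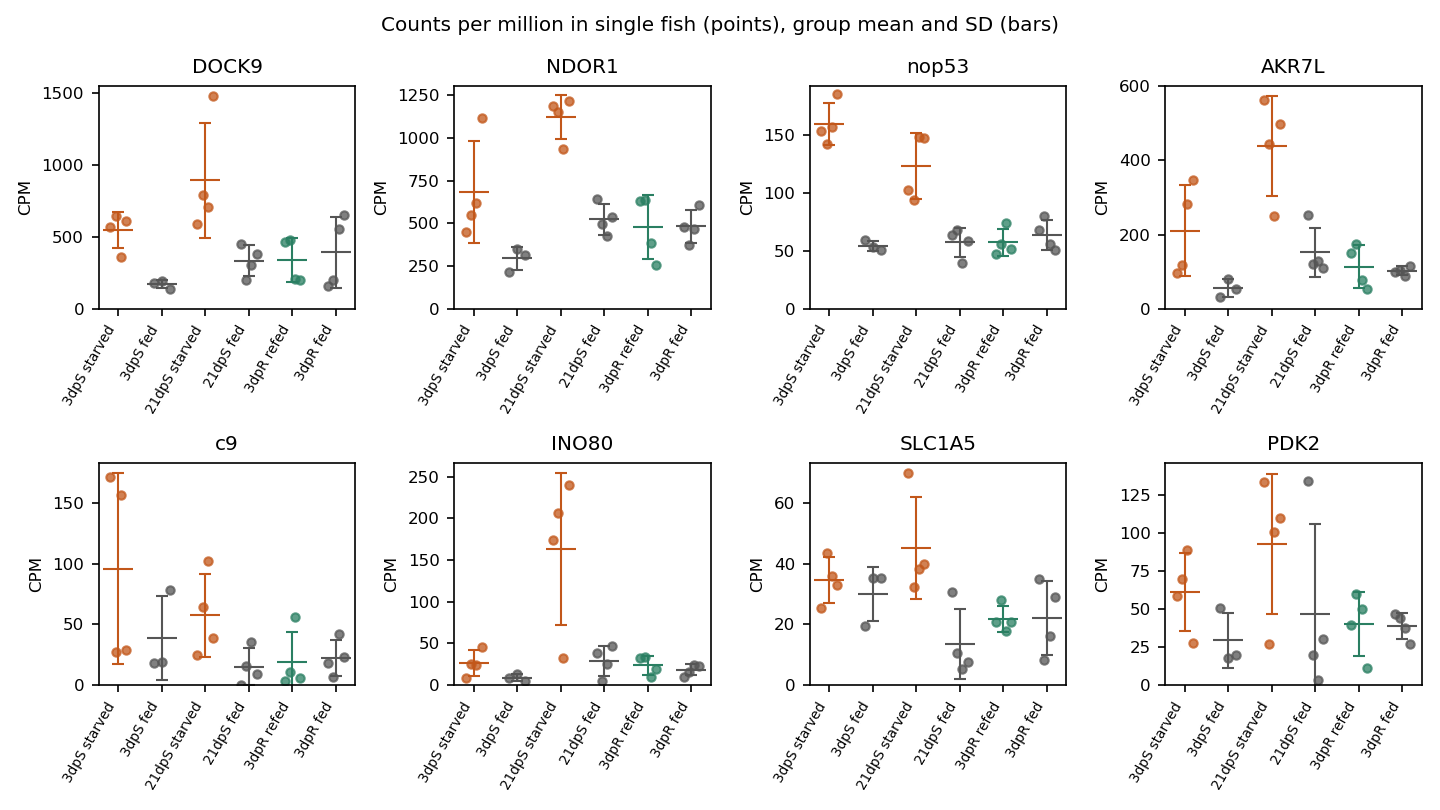
CPM in single fish (points) with the group mean and SD (bars) for 8 members, for the 6 groups with each starved or refed group left of its fed group; orange is starved, green refed and grey fed. DOCK9, NDOR1 and nop53 are separated at both 3dpS and 21dpS, whereas c9, INO80 and PDK2 have fish of 1 group far apart.

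Ribosome biogenesis had 6 members, of 38 genes at 20 CPM or more and 48 tested at 3dpS on a list of assembly factors and chaperones of nucleolar ribonucleoproteins. At 3dpS 42 of the 48 were higher in starved fish, 4 were called higher and 0 lower (21 and 1 at an unadjusted p under 0.05), and the median log2 fold change was 0.82, against 0.01 for all genes tested. Without the 6 members, 36 of 42 were higher, with a median of 0.79. The 4 called genes, NSA2, GTPBP4, RSL24D1 and DDX21, are not members: NSA2, RSL24D1 and DDX21 had 21dpS differences under 1, and GTPBP4 (1.16) lay at -0.80 after refeeding. The list was drawn up with earlier results of these data known, so its direction is no independent evidence.

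Of the 6 members, nop53, a factor of large-subunit assembly, was the most even. It had 153, 142, 157 and 185 CPM in 3dpS starved fish, against 58.9, 52.8 and 50.3 CPM in 3dpS fed fish. The log2 fold change was 1.42 ± 0.29 (SE, edgeR adjusted p = 0.0504), so the threshold was missed by little, and DESeq2 gave an adjusted p of 0.00238. At 21dpS the starved fish had 103, 93.7, 148 and 147 CPM, against 63.4, 67.8, 39.5 and 58.3 CPM in fed fish, and after refeeding 47.3, 56.0, 74.0 and 51.1 CPM, against 68.1, 79.7, 55.5 and 50.4 CPM. Starved fish of both times lay above every fed and refed fish.

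NOP58, a core protein of box C/D small nucleolar ribonucleoproteins, had the largest 3dpS log2 fold change of the members in edgeR, from 4, 4 and 5 reads in the fed fish, and on the log2(CPM + 5) scale its difference of 1.48 was below that of AKR7L (1.71). It stood at 13.5, 21.0, 48.2 and 37.5 CPM in starved fish and at 5.61, 5.87 and 8.38 CPM in fed fish, near the 3-read limit. Its log2 fold change was 2.01 ± 0.50 (edgeR adjusted p = 0.0889). LYAR, a nucleolar protein, had 37.6, 21.0, 60.201 and 28.9 CPM in starved fish and 9.82, 10.3 and 16.8 CPM in fed fish at 3dpS, a change of 1.42 ± 0.42 (adjusted p = 0.138). For both genes the 3dpS and the 21dpS groups did not overlap. The rRNA methyltransferase gene rrp8 (1.00 ± 0.45, adjusted p = 0.321) and srfbp1 (0.37 ± 0.40, adjusted p = 0.727) were higher with overlapping groups. RUVBL1, an ATPase of the chaperone complex that assembles small nucleolar ribonucleoproteins, showed no 3dpS difference beyond its error (0.05 ± 0.30, adjusted p = 0.972), although at 21dpS it had 173, 162, 136 and 98.7 CPM in starved fish, against 74.3, 42.8, 78.9 and 67.7 CPM in fed fish. None of these 5 was called by edgeR at 3dpS in the fit reported here, and NOP58 was called with no filter on low counts (edgeR adjusted p = 0.0171) and in a fit of all 23 libraries (0.0237).

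**Figure D4:**
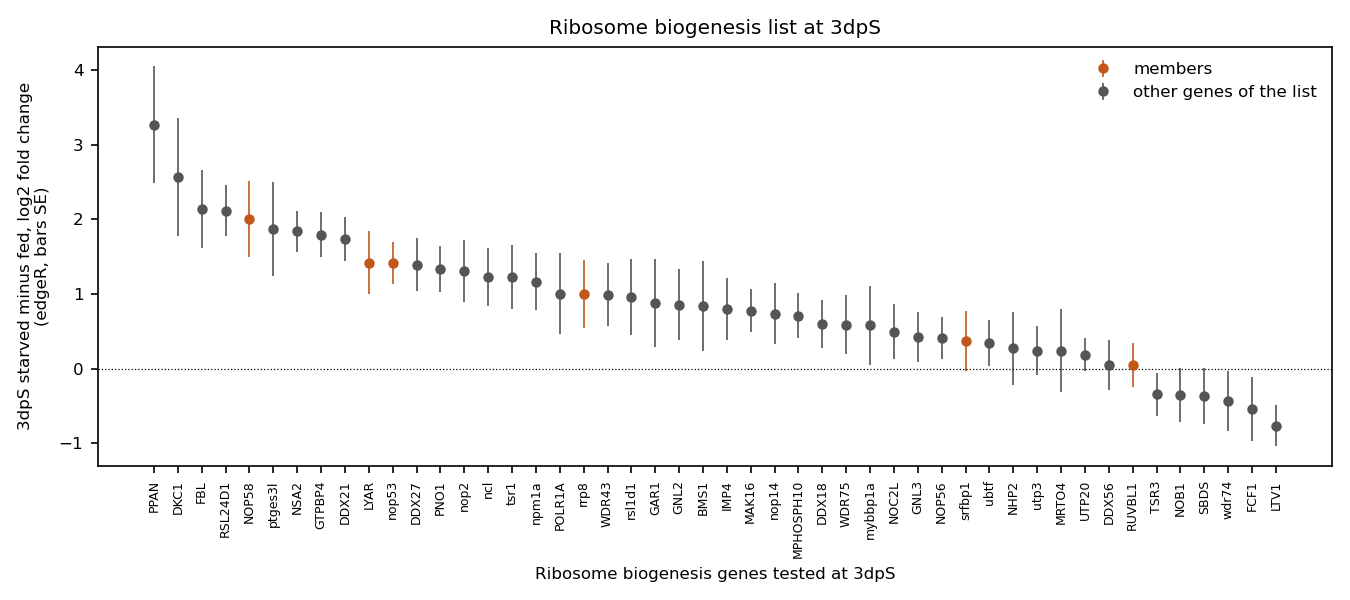
3dpS starved minus fed log2 fold change (edgeR, with SE) of the 48 ribosome biogenesis genes tested, ordered by size; members are orange and the other genes of the list grey. 42 of the 48 lie above 0, and the members range between 0.05 for RUVBL1 and 2.01 for NOP58.

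MOCS2 and SLC52A3 serve enzyme cofactors. MOCS2, a subunit of the enzyme that makes molybdopterin, had 48.9, 111, 69.6 and 70.07 CPM in 21dpS starved fish, against 25.4, 26.8, 14.3 and 15.0 CPM in fed fish. SLC52A3, a riboflavin carrier, had 61.9, 68.2, 74.8 and 140.1 CPM in starved fish, against 88.7, 17.8, 16.1 and 48.9 CPM in fed fish. The groups did not overlap for MOCS2 and overlapped for SLC52A3 through a single fed fish. At 3dpS the log2 fold changes were 0.70 ± 0.41 for MOCS2 and 1.23 ± 0.49 for SLC52A3, and neither passed (edgeR adjusted p = 0.472 and 0.267).

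A pair of aldo-keto reductases, enzymes that reduce sugars and reactive aldehydes, were members. AKR7L had 564, 445, 250.5 and 498 CPM in 21dpS starved fish, against 252, 119.6, 127 and 111 CPM in fed fish, and the groups crossed by little at starved replicate 3 and fed replicate 1. At 3dpS it had 96.1, 116, 281 and 346 CPM in starved fish and 32.3, 80.7 and 53.6 CPM in fed fish. Its 3dpS change of 1.82 ± 0.49 missed the threshold in edgeR (adjusted p = 0.121) and passed it in DESeq2 (0.0164). AKR1B1, aldose reductase, was among the most abundant members at 3195, 4249, 2554 and 4363 CPM in 21dpS starved fish and 1666, 649.6, 1913 and 1327 CPM in fed fish. Its 3dpS change was 0.48 ± 0.32 (adjusted p = 0.532), with overlapping groups. After refeeding AKR1B1 had 3762, 3436, 3139 and 1804 CPM, most of them within the range of the 21dpS starved fish. The 3dpR fed fish had 1691, 2648, 3344 and 2644 CPM.

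Fuel use was represented by PDK2, a kinase that shuts off pyruvate dehydrogenase, and LPIN1, a phosphatidate phosphatase that also coactivates fatty acid oxidation genes. PDK2 had 134, 27.3, 101 and 110.1 CPM in 21dpS starved fish, against 134, 19.6, 3.59 and 30.1 CPM in fed fish. One starved fish was as low as the fed ones and 1 fed fish was as high as the starved ones. LPIN1 had 103, 76.7, 47.0 and 72.9 CPM in starved fish, against 110.5, 17.8, 17.9 and 30.1 CPM in fed fish, and the high fed fish was again replicate 1. LPIN1 overlaps pfn4, a profilin gene counted at 2256 CPM, which itself lay 0.99 higher at 21dpS and 1.28 higher at 3dpS on the log2(CPM + 5) scale. At 3dpS the log2 fold change of PDK2 was 0.82 ± 0.47 (edgeR adjusted p = 0.449). Neither gene is on the lists of fatty acid oxidation or gluconeogenesis, which had 0 members. At 21dpS 4 of 14 tested genes of fatty acid oxidation were higher (median log2 fold change -0.12) and 1 of 4 of gluconeogenesis (-0.32). At 3dpS 10 of 18 and 3 of 6 were higher, and 0 were called at either time.

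Carriers and receptors of nutrients were also found. SLC1A5, an exchanger of glutamine and other neutral amino acids, had 70.05, 32.4, 38.3 and 40.04 CPM in 21dpS starved fish, against 30.8, 10.7, 5.38 and 7.52 CPM in fed fish. Among 15 tested genes of amino acid stress and serine synthesis it was the single member, and that list had 10 genes higher, 0 called higher and 1 called lower at 3dpS. SLC20A1, a phosphate carrier, had 66.8, 42.6, 22.6 and 65.8 CPM in 21dpS starved fish and 29.0, 12.5, 10.8 and 15.0 CPM in fed fish. Its 3dpS change was 1.19 ± 0.45 (edgeR adjusted p = 0.238). SCARB1, the receptor for high-density lipoprotein, had 39.1, 64.7, 64.7 and 44.7 CPM in 3dpS starved and 44.9, 20.5 and 50.3 CPM in 3dpS fed fish, both within the range of the 21dpS starved fish (24.4, 51.1, 67.8 and 28.6 CPM) but for 1 fed fish, while the 21dpS fed fish had 9.06, 7.14, 17.9 and 26.3 CPM. SLC43A3, a nucleobase carrier in mammals, stood at 47.0 to 81.5 CPM in 21dpS starved and 8.97 to 43.5 CPM in fed fish. DAB2, an endocytic adaptor of the enterocytes that take up luminal protein, had 81.5, 30.7, 24.4 and 82.9 CPM in starved and 36.2, 14.3, 7.17 and 15.0 CPM in fed fish at 21dpS. The 11 markers of those enterocytes, DAB2 among them, summed to 689 to 1546 CPM in 21dpS starved and 579 to 2041 CPM in 21dpS fed fish, and of the 9 tested at 21dpS 3 were higher and 0 called.

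Complement gave a pair of members with uneven values. C9, the pore-forming last component, had 24.4, 64.7, 103 and 38.6 CPM in 21dpS starved fish, against 0, 16.1, 35.9 and 9.40 CPM in fed fish, and factor B (cfb), a protease of the alternative pathway, had 31.0, 39.2, 88.7 and 50.0 CPM, against 10.9, 1.78, 34.1 and 13.2 CPM. At 3dpS c9 stood at 171, 27.5, 157 and 28.9 CPM in starved fish, with replicates 1 and 3 far above the others, and at 18.2, 19.1 and 78.8 CPM in fed fish. The 3dpS changes were 1.21 ± 0.88 for c9 and 0.25 ± 0.64 for cfb (edgeR adjusted p = 0.601 and 0.915). The 11 complement genes tested at 3dpS had 10 higher, 0 called and a median of 0.42, and 0 passed an unadjusted p under 0.05 in either direction.

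Liver markers were high in the same fish. The 16 liver genes on the marker list summed to 2321, 383, 2956 and 739 CPM in the 3dpS starved fish, so that the same replicates 1 and 3 were high, and to 418, 541 and 1410 CPM in the 3dpS fed fish. At 21dpS they summed to 546 to 1033 CPM in starved and 261 to 1058 CPM in fed fish, and at 3dpR to 168 to 586 CPM in refed and 193 to 734 CPM in fed fish. Of the liver genes tested, 12 of 12 were higher in starved fish at 3dpS (median log2 fold change 0.97) and 8 of 9 at 21dpS, with 0 called. For the 10 at 20 CPM or more, the median difference on the log2(CPM + 5) scale was 0.63 at 21dpS and -0.98 at 3dpR. The fish with the highest liver sum of its group also had the highest cfb in 6 of 6 groups and the highest c9 in 5 of 6. The part of liver tissue in the complement values was not tested.

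INO80, the ATPase of a chromatin remodelling complex, had the largest 21dpS difference on the log2(CPM + 5) scale of the rule. It stood at 174, 206, 33.1 and 240.2 CPM in starved fish, against 38.0, 5.35, 25.1 and 47.0 CPM in fed fish. Starved replicate 3 was inside the fed range, so the groups overlapped. At 3dpS it had 9.01, 25.9, 24.1 and 46.2 CPM in starved and 8.42, 13.2 and 5.03 CPM in fed fish, a change of 1.41 ± 0.56 (edgeR adjusted p = 0.257). In the current assembly the gene nearest to INO80, 139 bases away, is chac1, which degrades glutathione in stressed cells and was itself counted at 15.3 CPM, with differences of 0.73 at 21dpS and 1.09 at 3dpS on the log2(CPM + 5) scale.

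Cell division genes were few. FOXM1, a transcription factor of mitotic genes, had 32.6, 128, 10.4 and 196 CPM in 21dpS starved fish, against 27.2, 1.78, 34.1 and 11.3 CPM in fed fish, with 2 starved fish high and 2 within the fed range. CDC23, a subunit of the anaphase-promoting complex, had 74.9, 80.1, 62.6 and 37.2 CPM in starved and 45.3, 14.3, 19.7 and 39.5 CPM in fed fish. Its mean was 67.3 CPM in refed and 47.9 CPM in 3dpR fed fish. At 21dpS it was 63.7 CPM in starved and 29.7 CPM in fed fish. CCNG2, a cyclin that restrains division, had 161, 165, 127 and 137 CPM in starved and 86.9, 82.1, 84.3 and 41.4 CPM in fed fish, with no overlap. CCNG2 also had 33.0, 34.0, 132 and 169 CPM in 3dpS starved fish, low in tank 1 and high in tank 2, against 29.5, 64.6 and 38.6 CPM in 3dpS fed fish. On the list of 13 tested cell cycle and replication genes 6 were higher at 3dpS and 0 were called, with a median log2 fold change of -0.03 (1 higher and 2 lower at an unadjusted p under 0.05).

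Proteases and peptidases among the members were tmprss4b, ERAP1 and CLPP. The membrane serine protease tmprss4b had 171, 129, 29.6 and 114 CPM in 21dpS starved fish, against 32.6, 82.1, 19.7 and 11.3 CPM in fed fish. It was the single member on a list of 19 tested digestive enzymes of the gut wall, of which 5 were higher at 3dpS and 0 called (0 higher and 1 lower at an unadjusted p under 0.05). ERAP1, which trims peptides for antigen presentation, had 70.05, 64.7, 38.3 and 65.8 CPM in 21dpS starved and 16.3, 14.3, 23.3 and 13.2 CPM in fed fish. At 3dpS its groups overlapped, at 7.51, 8.09, 25.6 and 15.9 CPM in starved and 7.01, 20.5 and 18.4 CPM in fed fish. The list of interferon and antigen presentation genes, which holds neither ERAP1 nor RFXAP (below), had 0 members. At 21dpS 0 of its 16 tested genes were higher and 2 were called lower by edgeR, with a median log2 fold change of -1.12. Over all 3203 genes tested 53 were called lower. Of the 17 tested at 3dpS 4 were higher and 1 was called lower (0 higher and 6 lower at an unadjusted p under 0.05). CLPP, a protease of the mitochondrial matrix, had 57.4 to 114 CPM in 21dpS starved and 20.7 to 61.6 CPM in fed fish.

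For some members the 3dpS difference was small or went the other way. In RFXAP, a regulator of MHC class II genes, 21dpS starved fish had 165, 86.9, 189.6 and 90.1 CPM, against 74.3, 46.4, 35.9 and 35.7 CPM in fed fish, while at 3dpS the change was -0.50 ± 0.38 (edgeR adjusted p = 0.599). FAR1, a reductase of ether lipid synthesis, had 34.2, 74.97, 95.7 and 44.3 CPM in starved and 23.5, 19.6, 12.6 and 11.3 CPM in fed fish at 21dpS, and 73.6, 30.7, 24.1 and 63.5 CPM in starved and 44.9, 24.9 and 60.35 CPM in fed fish at 3dpS. The 4 fed fish of 21dpS were all below the 3 of 3dpS. The identifier ENSDARG00000097996 had 254, 308, 198 and 222 CPM in 21dpS starved and 72.4, 73.2, 61.0 and 88.3 CPM in 21dpS fed fish, and at 3dpS it had 48.1, 74.4, 66.2 and 96.7 CPM in starved and 60.32, 36.7 and 43.6 CPM in fed fish, a smaller difference with overlapping groups. ENSDARG00000096988 had 52.1, 81.8, 69.6 and 102 CPM in starved and 21.7, 8.92, 12.6 and 33.8 CPM in fed fish at 21dpS. Whether the 3dpS and 21dpS effects of these genes differ was not tested.

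Other members were higher at both times, and for 12 members neither the 3dpS nor the 21dpS groups overlapped, against 1.43% of the 3083 genes tested at both times. The 21dpS side of that count was used in the choice, so nothing is read from it. Besides DOCK9, nop53, NOP58 and LYAR these include si:dkey-183n20.15, tti2, NDOR1, ZCCHC9, RASSF3 and si:dkey-4p15.7, named after their values were seen. The clone-named gene si:dkey-183n20.15 had 218, 399.5, 295 and 326 CPM in 3dpS starved and 46.3, 129 and 121 CPM in 3dpS fed fish, a change of 1.56 ± 0.33 (edgeR adjusted p = 0.0569, DESeq2 0.00209). Next to it, 354 bases away, lies pfas, an enzyme of purine synthesis counted at 4.28 CPM. On the log2(CPM + 5) scale pfas had differences of 0.14 at 21dpS and 0.17 at 3dpS. For tti2, which helps to stabilize kinases related to phosphatidylinositol 3-kinase, the values were 52.6, 56.6, 64.7 and 77.9 CPM in 3dpS starved and 9.82, 33.7 and 20.12 CPM in 3dpS fed fish (1.47 ± 0.38, edgeR adjusted p = 0.0935, DESeq2 0.0494). It overlaps mak16, a ribosome assembly gene counted at 77.3 CPM, which lay 0.70 higher at 21dpS and 0.83 higher at 3dpS on the log2(CPM + 5) scale. NDOR1, a reductase of iron-sulfur assembly, had 451, 548, 617 and 1116 CPM in starved and 216, 349 and 315 CPM in fed fish at 3dpS (1.13 ± 0.34, edgeR adjusted p = 0.139).

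Matrix genes included col28a1a, a collagen gene, and FN1, fibronectin. At 21dpS col28a1a had 1655, 1477, 1329 and 1439 CPM in starved and 565, 451, 364 and 934 CPM in fed fish, and FN1 had 52.1, 56.2, 45.2 and 42.9 CPM in starved and 18.1, 33.9, 12.6 and 18.8 CPM in fed fish. Neither overlapped. At 3dpS the changes were 0.80 ± 0.45 and 1.13 ± 0.43 (edgeR adjusted p = 0.448 and 0.243). Of the 4 stromal markers tested at 3dpS 1 was higher, and both that could be tested at 21dpS were lower. The calcium-binding protein gene cabp2b was another abundant member, at 2491, 4016, 1226 and 3468 CPM in 21dpS starved fish and 690.0, 369, 2028 and 835 CPM in fed fish, with 1 fish of each group crossing over.

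Of the 19 clone-named genes, with symbols starting si:, 14 were higher at 3dpS (median log2 fold change 0.38) and 5 had groups apart at that time, against 49 and 11 of the 56 members with other symbols and 4 and 1 of the 6 without a symbol. At 21dpS, the contrast of the choice, 5, 32 and 4 had groups apart. Over all genes tested, starved fish lay above fed fish without overlap for 10.6% at 3dpS and 6.56% at 21dpS. Whether the kinds of symbol differ was not tested. Values of single fish fell into separate low and high ranges in si:ch211-161m3.6, which had 61.9, 73.3, 1.74 and 61.5 CPM in 21dpS starved and 0, 1.78, 3.59 and 37.6 CPM in 21dpS fed fish. The same steps appeared in every other group: 101, 0, 4.51 and 63.5 CPM in 3dpS starved, 63.1, 66.0 and 1.68 CPM in 3dpS fed, 3.79, 67.2, 61.98 and 77.5 CPM in 3dpR refed and 58.2, 3.25, 61.98 and 56.2 CPM in 3dpR fed fish. All values were either under 5 CPM or over 37 CPM, and both kinds occurred under each diet. Likewise si:ch211-232h16.4 had 8.15, 644, 905 and 44.3 CPM in 21dpS starved, against 41.7, 55.3, 12.6 and 11.3 CPM in 21dpS fed fish, and reached 613 CPM in a 3dpS fed fish and 491 CPM in a 3dpS starved fish. The 21dpS and 3dpS groups overlapped for both genes. By contrast si:ch211-260g14.9 (111, 109, 45.2 and 189 CPM in 21dpS starved, 45.3, 7.14, 37.7 and 41.4 CPM in fed fish) and si:ch211-134o20.2 (298, 436, 364 and 199 CPM, against 141, 112, 124 and 56.4 CPM) had little or no overlap.

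The remaining members ranged in mean level between 20.3 CPM (si:ch211-208a5.5) and 1999 CPM (si:ch211-153n19.3). They include fip1l1a of mRNA polyadenylation, atp6v1e1a of the proton pump of lysosomes, PIGF of glycolipid anchor synthesis, the cation channel gene TRPC1, the kinase gene MARK4, the adaptor gene skap1 of T cells, the troponin gene tnnt2c and the peptide gene urp1, as well as AVEN, BEND5, CCDC93, CRACD, NIPSNAP3A, SERINC4, btbd16, rab44, rasef2 and smim24. In rab44, which overlaps the splicing factor gene srsf3a, the partner was listed at 0 in all libraries. si:ch211-67n3.10 was higher at 3dpS by 1.37 ± 0.43 (edgeR adjusted p = 0.154). At 3dpR si:ch211-51h4.2 was the single member whose groups did not overlap, where the rule itself limited the difference and 2.27% of all genes tested had refed fish below fed fish without overlap, with 20.8 to 22.7 CPM in refed and 23.3 to 42.4 CPM in fed fish.

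The fed fish were compared across the days, because the choice sets starved fish against the fed fish of 1 day. The 21dpS fed group was the lowest of the 3 fed groups for 36 members (44.4%, against 30.0% of all genes at 20 CPM or more), the 3dpS fed group for 36 (44.4%, against 44.2%) and the 3dpR fed group for 9 (11.1%, against 25.8%). Since 2 of the fed groups entered the rule, this is a description. Set against 3dpS fed fish, 21dpS starved fish were higher for 79 members and by at least 1 for 49, with a median of 1.13 (0.10 over all genes at 20 CPM or more), values largely fixed by the choice of genes high in 21dpS starved fish. Set against the mean of the 3 fed groups in place of 21dpS fed alone, the rule gave 119 genes, of which 50 were among the 81. The other 31 members were not in it.

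**Figure D5:**
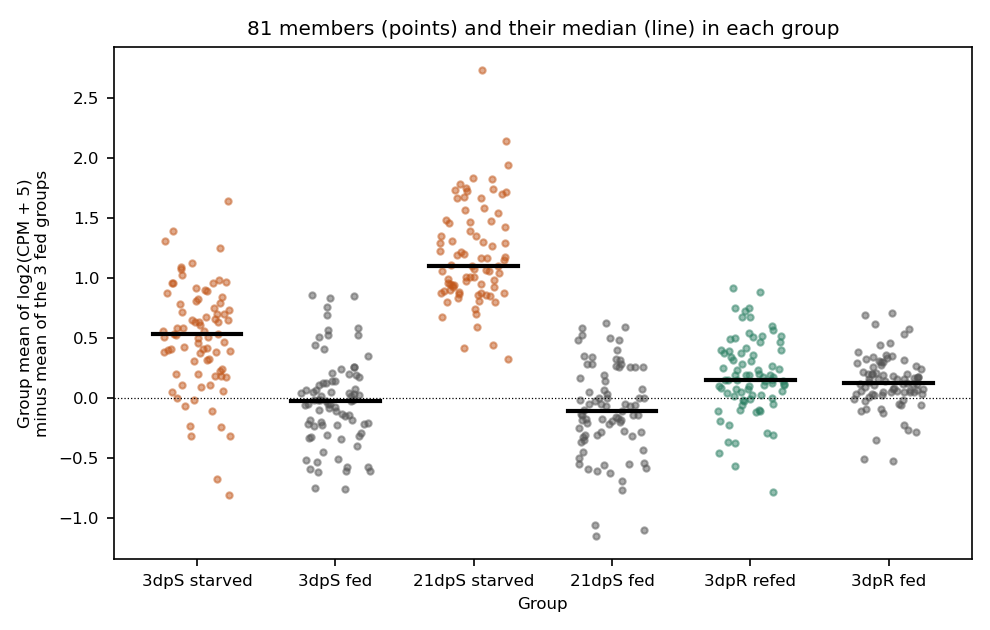
Group means of log2(CPM + 5) of the 81 members (points), each minus the mean of the 3 fed groups, with the median over members (line). Medians were 0.53 in 3dpS starved, -0.03 in 3dpS fed, 1.0961 in 21dpS starved, -0.11 in 21dpS fed, 0.15 in 3dpR refed and 0.13 in 3dpR fed fish.

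As the plot of the 6 groups shows, the members' median stood at 0.53 in 3dpS starved, 1.0961 in 21dpS starved and 0.15 in 3dpR refed fish, on the log2 scale and relative to the mean of the fed groups. The 21dpS starved group was the highest of the 6 for 69 members and the 3dpS starved group for 8. Refed fish lay above 21dpS starved fish for 4 members, with a median difference of -1.01, where the median over all genes at 20 CPM or more was -0.11. In TRPC1 the mean was 261 CPM in refed and 228 CPM in 3dpR fed fish. At 21dpS it was 282 CPM in starved and 121 CPM in fed fish. All but the 3dpS values are fixed in part by the choice, and the 3dpS values entered it through the mean CPM.

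The other genes raised at 21dpS can be set beside the members at 3dpS. Among the 22 that lay below the fed level after refeeding, 19 were higher at 3dpS, with a median log2 fold change of 0.91, and among the 24 tested of those still above it, 18 were higher, with a median of 0.30. The members, with 67 of 81 and 0.45, were in between. These are counts without a test, and they do not show that the classes differ.

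Within groups the members did not vary together more than other genes on the scale of the rule. After the group means were taken out, the median Pearson correlation over the 23 libraries was 0.08 for the 3240 pairs of members and 0.08 for all pairs of genes at 20 CPM or more (quartiles -0.12 and 0.29, and -0.13 and 0.28). With TMM-scaled CPM the medians were 0.13 and 0.0002. The points share libraries and depth, so the values are a description of these fish. Some fish were often extreme: 3dpS starved replicate 4 was the highest of its group for 35.8% of the members (12.5% of all genes at 20 CPM or more), and 3dpR refed replicate 2 for 44.4% (18.9%).

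Markers of enterocytes, the absorptive cells of the intestine, were found in all libraries. The 11 enterocyte markers, all above 20 CPM, summed to 2781 to 3253 CPM in 21dpS starved and 3854 to 6165 CPM in 21dpS fed fish, without overlap, and to 2988 to 4546 CPM in refed and 3290 to 5569 CPM in 3dpR fed fish. Erythrocyte markers summed to 785 to 3496 CPM in 21dpS starved and 1182 to 10195 CPM in 21dpS fed fish, and exocrine pancreas markers to 345 to 685 CPM and 440 to 1549 CPM. The last 2 pairs overlap. The part of these markers in the members' 21dpS values was not tested.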

How the data were processed

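Intestines of single zebrafish were sequenced as 23 single-end libraries of 50 bp after ribosomal RNA depletion. The authors trimmed reads with Trim Galore, aligned them with STAR to GRCz10 and deposited 1 table of raw read counts per gene for each library, made with HTSeq. The strand option is not given in the sources used here. Each library is 1 fish, and replicates share tanks.

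CPM for the rule used library totals (500205 to 1236436 reads, median 596487). The highest total is that of 3dpS starved replicate 2, whose member counts were all even, as given above. The limit of 3 reads covers counting error only, while the SE from edgeR also holds the spread between fish. Counts were tested with edgeR 4.0.16 in R 4.3.3 (TMM, filterByExpr, quasi-likelihood test, Benjamini-Hochberg adjustment, adjusted p under 0.05), separately for each day. In a simulated 3dpS comparison of 3647 genes, 13 of 100 genes changed 2-fold, 91 of 100 changed 4-fold and 10 of 3447 unchanged genes were called. Alternatives were DESeq2 1.42.0, RLE factors, count filters, a fit of all libraries, tank number as a block, other pseudocounts and CPM minimums, group medians and leaving out each library. Replicate pairs differed beyond sampling noise, so no library was counted as a repeat.

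Genes were named where they had one of the 15 largest 21dpS differences with a symbol, were on a gene list, were called at 3dpS or lay nearest a limit of the rule, and other genes were named after their values were seen. The members and lists were chosen with earlier results of these data known. Results of 2 members are not reported here by name.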

Additional observations from a re-analysis of the deposited data

Results flagged for a closer look

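Values of single fish far from the other 3 of their group, by Dixon's criterion, were looked for in 39 members. Of 195 groups of 4 fish, 11 (5.64%) held such a value, and chance gives about 1 in 20. The gene si:ch211-161m3.6 had 3 of them: 1.74 CPM in 21dpS starved replicate 3, the lowest of its group, 37.6 CPM in 21dpS fed replicate 4, the highest, and 3.25 CPM in 3dpR fed replicate 2, the lowest.

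High values in single fish were 56.0 CPM for c9 in 3dpR refed replicate 3, 140.1 CPM for SLC52A3 in 21dpS starved replicate 4, and, both in 21dpS fed replicate 1, 252 CPM for AKR7L and 23.5 CPM for rrp8. Low values in single fish were 17.02 CPM for ENSDARG00000096988 in 3dpR refed replicate 4, 38.3 CPM for ERAP1 in 21dpS starved replicate 3, and, both in 21dpS fed replicate 4, 24.4 CPM for tti2 and 41.4 CPM for CCNG2.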

How the results depend on the processing

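At 3dpS 1 member was called higher. The count was 6 with DESeq2 (1.61% of 3470 genes called higher) and 0 with RLE factors (0.228% of 3953 genes). With no filter it was 9 (0.474% of 18968 genes, among them genes below the CPM minimum of the rule). It was 3 with at least 10 counts in every library (0.84% of 2381 genes), where 10 members, in place of 21, had an unadjusted p under 0.05. In a fit of all 23 libraries it was 4 (0.843% of 4628 genes). These shares rest on unlike sets of genes. Leaving out 1 library at a time gave 0 to 3 members, where 0% to 1.49% of all genes were called higher. The members' median 3dpS log2 fold change was lowest without 3dpS starved replicate 4 (0.31, 62 of 79 higher). It was highest without 3dpS fed replicate 1 (0.56, 61 of 81 higher). The medians over all genes were then 0.0007 and 0.05. Over all genes at 21dpS, 37 were called higher and 53 lower, against 105 and 103 with DESeq2, and 17 to 60 higher and 18 to 77 lower on leaving out 1 library. At 3dpR 0 were called higher and 1 lower, against 3 and 9 with DESeq2, and 0 to 6 lower on leaving out 1 library. The rule gave 75 to 124 genes when 1 library was left out. The median correlation within groups was 0.13 with TMM-scaled CPM. On leaving out 1 library the 3dpS log2 fold change of cfb ranged between -0.16 and 0.82 and that of RUVBL1 between -0.11 and 0.21, and the cause was not tested. Uncalled changes of other members moved by over 1.5 times, among them c9 (0.67 to 2.12), PDK2 (0.49 to 1.63), AKR1B1 (0.19 to 0.94) and srfbp1 (0.06 to 0.66).

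With tank number as a replicate block, 3 members (0.329% of all genes) were called higher at 3dpS and 64 genes at 21dpS. Fish with the same tank number but other diets come from different tanks. Their mean deviations from the group means correlated at -0.0203 at 3dpS, 0.239 at 21dpS and -0.261 at 3dpR, so the number is not taken as a pairing. Depth limits low members: 6 averaged under 20 reads in 3dpS starved and 26 in 3dpS fed fish, 1 in 21dpS starved and 35 in 21dpS fed fish, and 29 in 3dpR refed and 30 in 3dpR fed fish.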
